A study of Mus musculus with 6 samples.

Results

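The integrin and laminin chains described here were the 35 protein-coding genes whose symbols name an integrin α or β chain or a laminin α, β or γ chain, out of 16415 genes listed in the deposited table. They comprised 17 integrin α chains, 8 integrin β chains and 10 laminin chains, and the rule uses gene symbols and gene type, not a measured value. The data were messenger RNA libraries from mouse trigeminal ganglion, the ganglion that holds the sensory neurons of the face together with their satellite glia, Schwann cells, vessels and connective tissue. The libraries fell into 3 labelled SETDB2-up and 3 labelled NC-up; SETDB2 is a histone methyltransferase that the study places in a sensory neuron pathway linked to migraine. All 6 libraries carry the genotype label WT, and the labels give no agent, dose, age or sex, nor whether ganglia were pooled. Since nothing states that the libraries of a group came from separate animals, the p-values speak for the scatter among these libraries only, which may be technical.

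Integrins are receptors built from an α and a β chain that span the cell membrane and tie the extracellular matrix to the actin cytoskeleton. Laminins are cross-shaped trimers of an α, a β and a γ chain and form the sheet-like core of basement membranes. In peripheral nerve and ganglion, a basement membrane coats Schwann cells and satellite glia, and laminin receptors on these cells take part in myelination and in sorting axons.

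Values are normalised reads, that is, read counts that the authors divided by 1 factor for each library. Between 19334997 and 23501386 reads could be recovered from each library, and the 35 members held between 66 reads (Itgax) and 35910 reads (Itgb1) over the 6 libraries. Setdb2 had 113, 97.6 and 104 normalised reads in SETDB2-up libraries 1 to 3, against 69.9, 58.4 and 71.5 in NC-up libraries 1 to 3. The groups did not overlap, and on the log2 scale the difference was 0.65 (standard error 0.19, adjusted p = 0.0253 by limma), in the direction of the labels. Without SETDB2-up library 1, 2 or 3, or NC-up library 2, the value was 0.60, 0.70, 0.66 or 0.56 and no longer passed (limma, adjusted p = 0.141, 0.0636, 0.0515 and 0.0802). After an adjustment for GC content, described further on, it was 0.48 (limma, adjusted p = 0.158). Gm45935 overlaps Setdb2 on the same strand, so that reads of the pair may not be told apart. SETDB2-up libraries 1 and 2 stood apart through hepatocyte transcripts such as albumin. The 7 hepatocyte markers tested summed to 2570, 6051 and 69.6 normalised reads in SETDB2-up libraries 1 to 3, against 29.7 to 38.4 in NC-up libraries. The result of each called member is therefore also given without SETDB2-up libraries 1 and 2. Only SETDB2-up library 3 then stands against 3 NC-up libraries, and it is assumed to vary as they do. Of the marker lists for cells that could carry these chains, Schwann and satellite glia markers summed to 267268 to 307575 normalised reads in SETDB2-up libraries and 296791 to 314509 in NC-up libraries. Among those 12 markers 1, Cdh19, was called higher and 3, Sox10 and Mag among them, lower. Fibroblast markers summed to 22159 to 25818 in SETDB2-up and 25208 to 29832 in NC-up libraries, with 3 of 8 called lower. Endothelial markers summed to 2908 to 2993 in SETDB2-up and 3075 to 3204 in NC-up libraries, with 1 of 7 called lower. Sensory neuron markers, which check the labelled tissue, summed to 291150 to 315038 in SETDB2-up and 283831 to 300363 in NC-up libraries. Of these 8 markers 1 was called higher and 1 lower. After the GC adjustment 1 Schwann and satellite glia marker was called higher and 1 lower (limma). It then called 2 fibroblast markers lower, 0 endothelial markers, and of the sensory neuron markers 2 higher and 1 lower. In whole-tissue RNA, fewer cells of a type and less RNA in each cell cannot be told apart, and the part of these markers in the results below was not tested.

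The levels of the chains spread widely. Per kilobase of transcript, the mean over all 6 libraries was highest for Itgb1, at 1502 normalised reads per kb, which encodes the β1 chain shared by most matrix-binding integrins. The next were Itga7 with 909, Lamb1 with 681, Itga6 with 651, Itgb5 with 531 and Itgb4 with 528 normalised reads per kb. Itga6 and Itga7 encode laminin-binding α chains and Itgb4 the laminin-binding partner of α6, so that 4 of the 6 most abundant members were receptors for laminin or the β chain they share. Ranges over the 6 libraries did not overlap between Itgb1 and Itga7, between Itga7 and Lamb1, between Itgb4 and Lamc1 (408), between Lamb2 (363) and Lama4 (235), between Itgb8 (154) and Itgb3 (104), or between Itgb3 and Itga2b (52.5). All other neighbours in the order overlapped, down to Itgax at 2.6 normalised reads per kb. Above 100 normalised reads per kb stood 14 members, and the other 21 formed a tail below 60. In that tail lie the leukocyte chains: Itgb2, the β chain of leukocyte adhesion receptors, had 105, 64.1 and 98.2 normalised reads in SETDB2-up, and in NC-up libraries 112, 59.4 and 72.4.

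**Figure D1:**
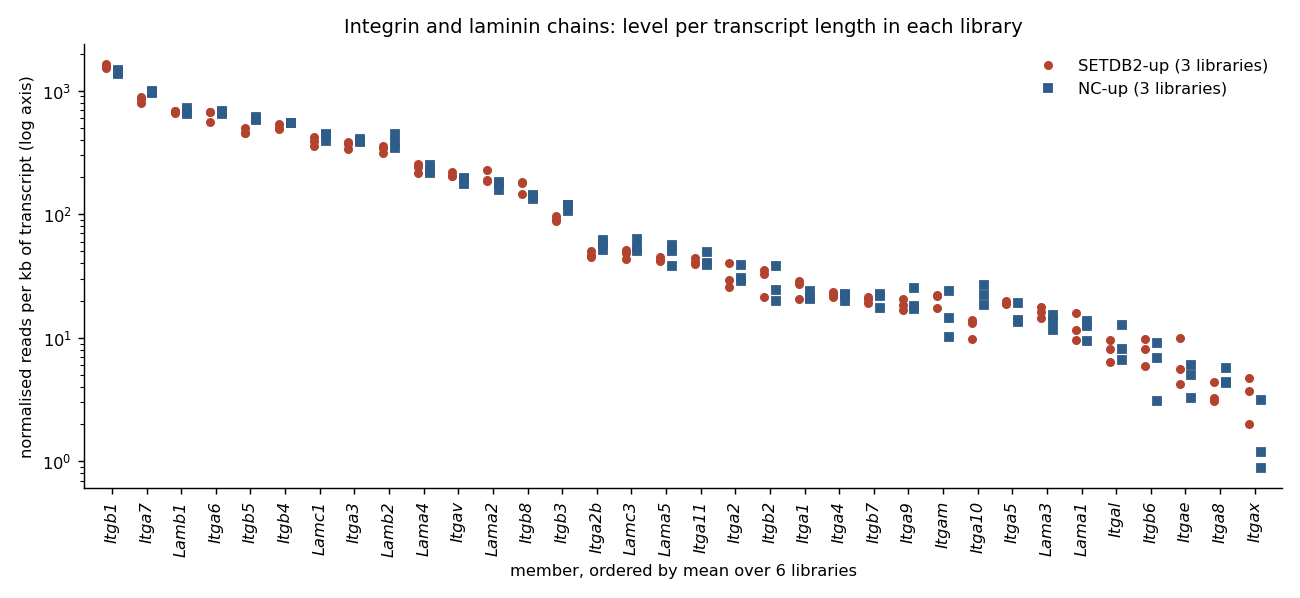
Normalised reads per kb of transcript (log axis) of the members, 1 left out, ordered by the mean over 6 libraries; circles are the 3 SETDB2-up libraries and squares the 3 NC-up libraries. Itgb1 stands highest at a mean of 1502 and Itgax lowest at 2.6.

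Few of these chains passed the test between the groups. With an adjusted p under 0.05 as the threshold (limma on log2(value + 1), adjusted over 16387 genes), 4 members were lower in SETDB2-up libraries, namely Itgb5, Itgb3, Itga10 and Itga7, and 1 was higher, Itgb8. The 4 lower calls are 11.4% of the members, against 8.71% of all genes tested, and the 1 higher call is 2.86%, against 7.71% of all genes. Together 14.3% of the members and 16.4% of all genes were called, so the members as a group were called about as often as any gene. The median log2 fold change was -0.03 over the members and 0.00 over all genes, with 15 members above 0 and 20 below. An unadjusted p under 0.05 was reached by 9 members, and edgeR on recovered reads called the same 1 member higher and 4 lower, where 7.4% and 9.08% of all genes were called. By the plain criterion of groups that do not overlap, 4 members were higher (Itgb8, Itgb1, Itgav and Lama2), where 16.8% of all genes were, and 7 were lower (Itgb5, Itgb3, Itga10, Itga7, Itgb4, Itga3 and Itga2b), where 16.4% of all genes were. These are 11.4% and 20% of the members. The number called lower was 2 without SETDB2-up library 1, NC-up library 1 or NC-up library 2, and the number called higher was 0 without SETDB2-up library 1, SETDB2-up library 2 or NC-up library 3, 2 without NC-up library 1 and 3 without SETDB2-up library 3.

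**Figure D2:**
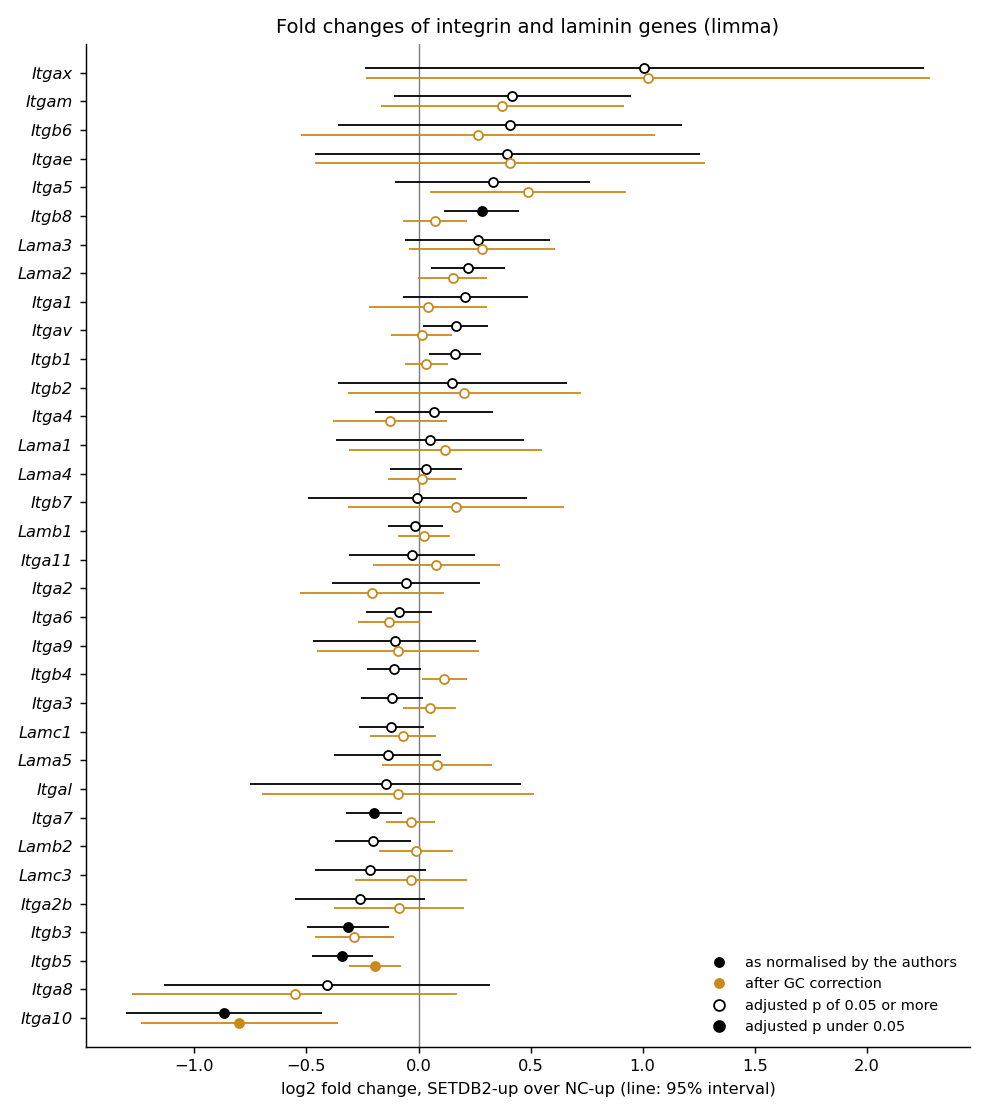
Log2 fold change of SETDB2-up over NC-up with its 95% interval for the members, 1 left out, as normalised by the authors (black) and after correction for transcript GC content (ochre); filled points have an adjusted p under 0.05. Itga10 lies lowest at -0.87, and of the 5 filled black points only Itgb5 and Itga10 are also filled in ochre.

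Among the β chains that pair with αv, Itgb5 and Itgb3 were called lower and Itgb8 higher. Only Itgb5 was still called after the adjustment for GC content described further on. Itgb3 then narrowly missed the threshold at -0.29, and Itgb8 was at 0.07 (limma, adjusted p = 0.0554 and 0.610). The αv integrins bind vitronectin, fibronectin and related ligands that carry an RGD motif, and those with β6 or β8 release TGF-β from its latent complex. Itgb5, on chromosome 16 (GRCm38, 33829665 to 33949338), encodes the β5 chain of a vitronectin receptor. It had 1484, 1498 and 1635 normalised reads in SETDB2-up libraries 1 to 3, against 1902, 2008 and 1930 in NC-up libraries. Every SETDB2-up library lay below every NC-up library. The means were 1539 ± 83.3 in SETDB2-up and 1947 ± 55.3 in NC-up libraries (SD, n = 3 each), which gives a log2 difference of -0.34 (standard error 0.06, adjusted p = 0.00162 by limma). Without SETDB2-up libraries 1 and 2 it was -0.25 (limma, adjusted p = 0.137).

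Itgb3, on chromosome 11 (104608000 to 104670476), encodes the β3 chain, which pairs with αv in vessels and many other cells and with αIIb in platelets. In SETDB2-up libraries it had 532, 559 and 509 normalised reads, and in NC-up libraries 692, 691 and 610. Here too the groups did not overlap, with NC-up library 3 nearest to the SETDB2-up values. The means were 533 ± 25.4 in SETDB2-up and 664 ± 47.1 in NC-up libraries (SD, n = 3 each), and the log2 fold change was -0.31 (standard error 0.09, adjusted p = 0.0189 by limma). It was -0.38 without SETDB2-up libraries 1 and 2 (limma, adjusted p = 0.129). The call was also lost without SETDB2-up library 1, NC-up library 1 or NC-up library 2, at -0.31, -0.28 and -0.28 (limma, adjusted p = 0.0803, 0.0578 and 0.0760). The platelet partner Itga2b had 161, 175 and 156 normalised reads in SETDB2-up, and in NC-up libraries 199, 177 and 215. These ranges were apart by about 2 normalised reads, and the difference did not pass the test (log2 fold change -0.26, standard error 0.14, adjusted p = 0.211 by limma). The 4 platelet markers tested had a median log2 fold change of -0.07 and did not move one way. Gp1bb, which overlaps Septin5 on the same strand and held most of their summed reads, was called lower, but at -0.11 after the GC adjustment it was not (limma, adjusted p = 0.380). Pf4, at 36.2 ± 5.97 normalised reads in SETDB2-up and 51.9 ± 1.02 in NC-up libraries (SD, n = 3 each), had -0.52, while Gp1ba had 0.25 and Ppbp 0.59, and these 3 were not called.

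Itgb8, on chromosome 12 (119162803 to 119238276), encodes the β8 chain and was the only member called higher. It had 1541, 1499 and 1232 normalised reads in SETDB2-up libraries 1 to 3, against 1173, 1201 and 1124 in NC-up libraries. The rise lay mostly in SETDB2-up libraries 1 and 2, while library 3 stood only just above the NC-up values. The means were 1424 ± 167 in SETDB2-up and 1166 ± 38.7 in NC-up libraries (SD, n = 3 each), with a log2 fold change of 0.28 (standard error 0.08, adjusted p = 0.0218 by limma). Without SETDB2-up libraries 1 and 2, which are also those with hepatocyte transcripts, the value was 0.08 (limma, adjusted p = 0.808). Leaving out SETDB2-up library 1, SETDB2-up library 2 or NC-up library 3 alone also lost the call, at 0.22, 0.24 and 0.26 (limma, adjusted p = 0.154, 0.102 and 0.0802). The shared partner Itgav, on chromosome 2 (83722303 to 83806917), had 1560, 1442 and 1448 normalised reads in SETDB2-up, and in NC-up libraries 1385, 1351 and 1232. The groups did not overlap, but the test was not passed (0.17, standard error 0.07, adjusted p = 0.110 by limma). Itgb6, the remaining αv partner besides β1, was among the lowest members, its groups overlapping, with 28.5, 46.8 and 39.3 normalised reads in SETDB2-up, and in NC-up libraries 14.8, 44.1 and 33.1.

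Set against each other per kb, these partner chains shifted in their shares. Itgb8 made up 25.00%, 24.1% and 19.8% of the summed level of Itgb3, Itgb5, Itgb6 and Itgb8 in SETDB2-up libraries, and 16.6%, 16.2% and 16.04% in NC-up libraries. Itgb5 made up 61.6%, 61.6% and 67.2% in SETDB2-up libraries and 68.8%, 69.3% and 70.5% in NC-up libraries. For both chains the groups were apart, and SETDB2-up library 3 lay closest to NC-up each time. The sum of the 4 chains was 733, 741 and 741 normalised reads per kb in SETDB2-up libraries and 842, 883 and 834 in NC-up libraries. Itgb8 per kb was 0.406, 0.391 and 0.294 of Itgb5 in SETDB2-up libraries, against 0.241, 0.234 and 0.228 in NC-up libraries. By contrast, the ratio of Itgb3 to Itgb5, both called lower, overlapped between the groups at 0.203, 0.212 and 0.176 in SETDB2-up and 0.206, 0.195 and 0.179 in NC-up libraries. After the GC adjustment the log2 fold change of Itgb8 lay 0.27 above that of Itgb5, against 0.62 before it; their transcripts have GC contents of 40.4% and 57.0%. Since the chains were compared after their calls were known, these shares and ratios are given without a test.

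**Figure D3:**
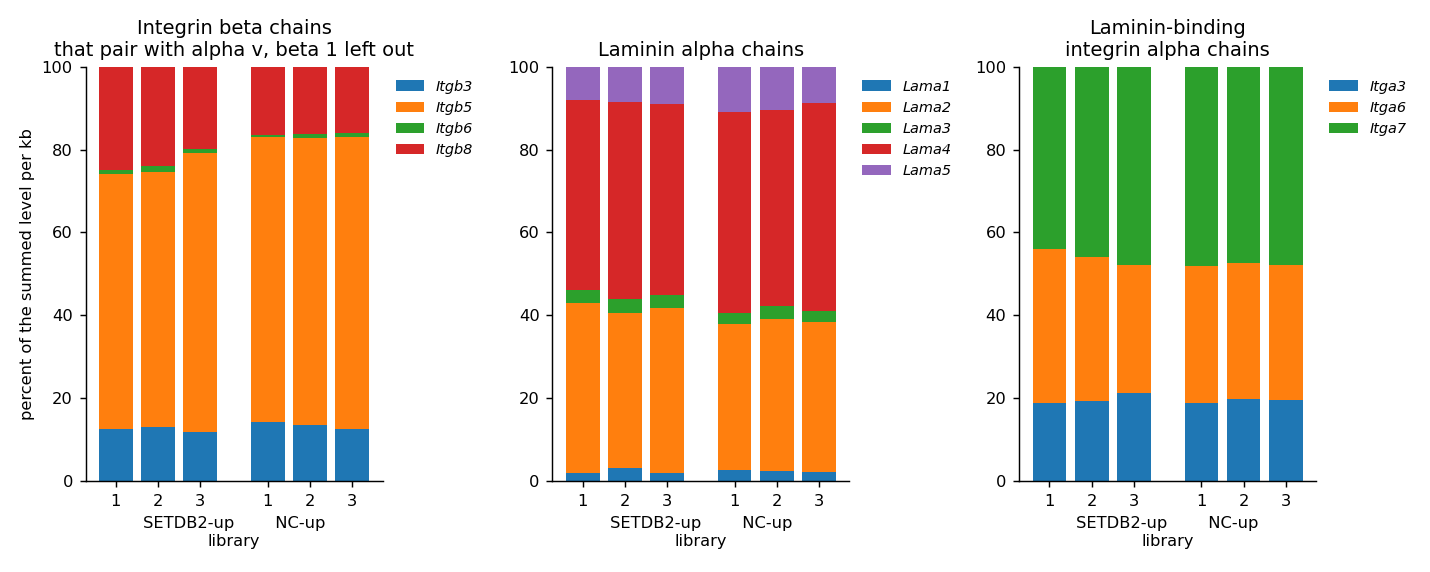
Shares of each chain in the summed level per kb (percent) within the αv-pairing β chains other than β1, the laminin α chains and the laminin-binding integrin α chains, in SETDB2-up libraries 1 to 3 and then NC-up libraries 1 to 3. The Itgb8 share is 19.8% to 25.00% in SETDB2-up and 16.04% to 16.6% in NC-up libraries, while Itga3, Itga6 and Itga7 keep overlapping shares.

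The sequence upstream of the start is shown for those called members that RefSeq's promoter table (GRCm38.p6) holds. A reason is that Itgb5 and Itgb8 share the αv partner yet were called in opposite directions. The Itgb8 call did not outlast the adjustment for GC content. Another reason is that the study names KLF4, of a family known to bind CACCC and GC-rich boxes. Each run gives the 250 bases before the start, from 5′ to 3′ on the gene's strand: Itgb5 on the plus strand at chr16:33829415-33829664, Itgb8 on the minus strand at chr12:119238277-119238526 and Itga10 on the plus strand at chr3:96645334-96645583. Capitals mark matches to GGGCGG (GC box) and CACCC on either strand, that is, also CCGCCC and GGGTG, and these motifs do not overlap each other in the runs.
Itgb5: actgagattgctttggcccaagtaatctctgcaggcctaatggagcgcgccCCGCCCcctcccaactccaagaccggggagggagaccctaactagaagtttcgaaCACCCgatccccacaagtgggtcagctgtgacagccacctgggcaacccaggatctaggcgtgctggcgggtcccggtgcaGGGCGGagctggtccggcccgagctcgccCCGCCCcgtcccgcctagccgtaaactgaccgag
Itgb8: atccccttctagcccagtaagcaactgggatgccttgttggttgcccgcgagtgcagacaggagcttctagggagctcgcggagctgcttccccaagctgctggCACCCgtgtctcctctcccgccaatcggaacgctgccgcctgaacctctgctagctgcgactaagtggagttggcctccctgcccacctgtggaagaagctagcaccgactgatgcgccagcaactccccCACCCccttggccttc
Itga10: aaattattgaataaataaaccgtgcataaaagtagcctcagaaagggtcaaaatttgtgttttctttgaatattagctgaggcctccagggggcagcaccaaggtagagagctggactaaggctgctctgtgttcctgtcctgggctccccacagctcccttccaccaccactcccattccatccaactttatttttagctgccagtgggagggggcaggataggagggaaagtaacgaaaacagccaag
The Itgb5 run holds 3 GC boxes and 1 CACCC match and has 18 CG dinucleotides and a GC content of 65.2%. In the Itgb8 run there are 2 CACCC matches and no GC box, with 12 CG dinucleotides and a GC content of 62.4%. That of Itga10 holds neither motif and has 2 CG dinucleotides and a GC content of 48%. Among 32851 RefSeq promoters cut to the same length, 32.7% hold GGGCGG and 52.0% hold CACCC on either strand, with a median of 6 CG dinucleotides and a median GC content of 52.4%. Entries existed for 22 of the 35 members, and of their 24 promoters 9 (37.5%) hold a GC box and 14 (58.3%) a CACCC match, shares near those of all promoters. These matches describe the letters in the window and say nothing of a factor's presence there.

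Itga10 had the lowest fold change of all members. It lies on chromosome 3 (96645584 to 96664519) and encodes α10, a collagen-binding partner of β1 best known from cartilage. It had 70.3, 49.8 and 66.03 normalised reads in SETDB2-up libraries, against 136, 113 and 93.9 in NC-up libraries. No SETDB2-up library reached the lowest NC-up library. The means were 62.1 ± 10.8 in SETDB2-up and 114 ± 20.9 in NC-up libraries (SD, n = 3 each), and the log2 fold change was -0.87 (standard error 0.21, adjusted p = 0.00832 by limma). Without SETDB2-up libraries 1 and 2 it was -0.76 (limma, adjusted p = 0.232), and without SETDB2-up library 2 alone -0.72, just short of the threshold (limma, adjusted p = 0.0515). Among the 4 collagen-binding α chains, Itga10 held 11.3%, 8.93% and 13.2% of the summed level per kb in SETDB2-up libraries and 19.3%, 19.9% and 17.2% in NC-up libraries. The other collagen-binding chains, Itga1, Itga2 and Itga11, were not called, with log2 fold changes of 0.21, -0.06 and -0.03. Col1a1, a fibroblast marker and the α chain of the main fibrillar collagen, averaged 3439 ± 273 normalised reads in SETDB2-up and 5051 ± 672 in NC-up libraries and was also called lower (limma, adjusted p = 0.000193). The median log2 fold change over the 8 fibroblast markers was 0.00, with 3 called lower and 0 higher. After the adjustment for GC content it was -0.11, with 2 called lower and 0 higher (limma). The part of fibroblasts in the Itga10 value was not tested.

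Itga7, on chromosome 10 (128933421 to 128958286), encodes the laminin receptor chain α7, which pairs with β1 and is prominent in muscle and Schwann cells. It was the most abundant α chain, with 3188, 3560 and 3469 normalised reads in SETDB2-up, and in NC-up libraries 3992, 3907 and 3819. The groups were apart and SETDB2-up library 1 was lowest. The means were 3406 ± 194 in SETDB2-up and 3906 ± 86.6 in NC-up libraries (SD, n = 3 each), which gives a log2 difference of -0.20 (standard error 0.06, adjusted p = 0.0263 by limma), and -0.17 without SETDB2-up libraries 1 and 2 (limma, adjusted p = 0.279). The call was lost as well without SETDB2-up library 1 (-0.15) or NC-up library 1, 2 or 3 (-0.18, -0.20 and -0.22; limma, adjusted p = 0.155, 0.0833, 0.0829 and 0.0507 in this order). Skeletal muscle markers, of another tissue known for α7, summed to 48.4, 46.8 and 112 normalised reads in SETDB2-up libraries 1 to 3. In NC-up libraries 1 to 3 they summed to 97.5, 228 and 258, highest in NC-up libraries 2 and 3. Of these 5 markers 3 were called lower, and 1 after the adjustment for GC content (limma). Mural cell markers summed to 4595 to 4977 in SETDB2-up and 4215 to 4875 in NC-up libraries, with 1 of 7 called higher. After the adjustment 0 of these 7 were called. The part of either cell type in the Itga7 value was not tested.

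The other laminin receptor chains were not called. Itga6, whose α6 chain pairs with β1 or β4, had 2879, 2900 and 2396 normalised reads in SETDB2-up, and in NC-up libraries 2958, 2898 and 2796. The groups overlapped and SETDB2-up library 3 stood low (log2 fold change -0.09, standard error 0.07, adjusted p = 0.433 by limma). Itgb4 had 3035, 3084 and 3354 in SETDB2-up libraries and 3371, 3420 and 3418 in NC-up libraries, with SETDB2-up library 3 only just below the lowest NC-up value (-0.11, standard error 0.06, adjusted p = 0.219 by limma). B230344G16Rik and Galk1 overlap Itgb4 on the opposite strand, and both were called lower. B230344G16Rik averaged 104 ± 12.1 normalised reads in SETDB2-up and 161 ± 18.5 in NC-up libraries. Galk1 averaged 294 ± 23.1 in SETDB2-up and 377 ± 15.4 in NC-up libraries, far fewer than Itgb4. Itga3, another laminin-binding chain, had 1643, 1813 and 1859 in SETDB2-up libraries and 1892, 1991 and 1882 in NC-up libraries (-0.12, standard error 0.07, adjusted p = 0.235 by limma). After the adjustment for GC content Itgb4 and Itga3 lay on the other side of 0, at 0.11 and 0.05 (limma, adjusted p = 0.193 and 0.684). Summed per kb, Itga3, Itga6 and Itga7 came to 1799, 1931 and 1801 normalised reads in SETDB2-up, and in NC-up libraries 2068, 2054 and 1986, without overlap. Their shares of that sum overlapped between the groups for each chain. The sum was not adjusted for GC content. With that adjustment the log2 fold changes of Itga7, Itga6 and Itga3 were -0.03, -0.13 and 0.05, none called (limma). Keratinocytes carry α3, α6 and β4 too. Their 5 markers tested, all called lower, summed to 138, 142 and 119 normalised reads in SETDB2-up libraries 1 to 3. In NC-up libraries 1 to 3 they summed to 188, 561 and 572, so that NC-up libraries 2 and 3 stood apart. After the adjustment for GC content 2 of the 5 were called lower (limma). The part of keratinocytes in the values of these chains was not tested.

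Itgb1, on chromosome 8 (128685654 to 128733579), is the partner of both α7 and α10. It had 6254, 6033 and 5872 normalised reads in SETDB2-up libraries, against 5422, 5174 and 5626 in NC-up libraries. Every SETDB2-up value was higher, opposite to its called α partners, but the test was narrowly missed (log2 fold change 0.16, standard error 0.06, adjusted p = 0.0515 by limma, 95% interval 0.05 to 0.28). Without SETDB2-up library 3 it was passed, at 0.18 (limma, adjusted p = 0.0210), but not with any other single library left out. With the adjustment for GC content Itgb1 was at 0.04 and Itga7 at -0.03 (limma, adjusted p = 0.731 and 0.775). Itga10 was then at -0.80 and still called. Over all 17 integrin α chains the summed level per kb was 2316 ± 74.3 in SETDB2-up and 2495 ± 75.2 in NC-up libraries (SD, n = 3 each). Most of it came from Itga7, Itga6 and Itga3. On average they held 36.6%, 27.3% and 15.7% of it in SETDB2-up and 39.0%, 26.8% and 15.9% in NC-up libraries. Over the 8 β chains the sum was 2884 ± 28.4 in SETDB2-up and 2867 ± 34.0 in NC-up libraries (SD, n = 3 each). Neither sum was adjusted for GC content.

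**Figure D4:**
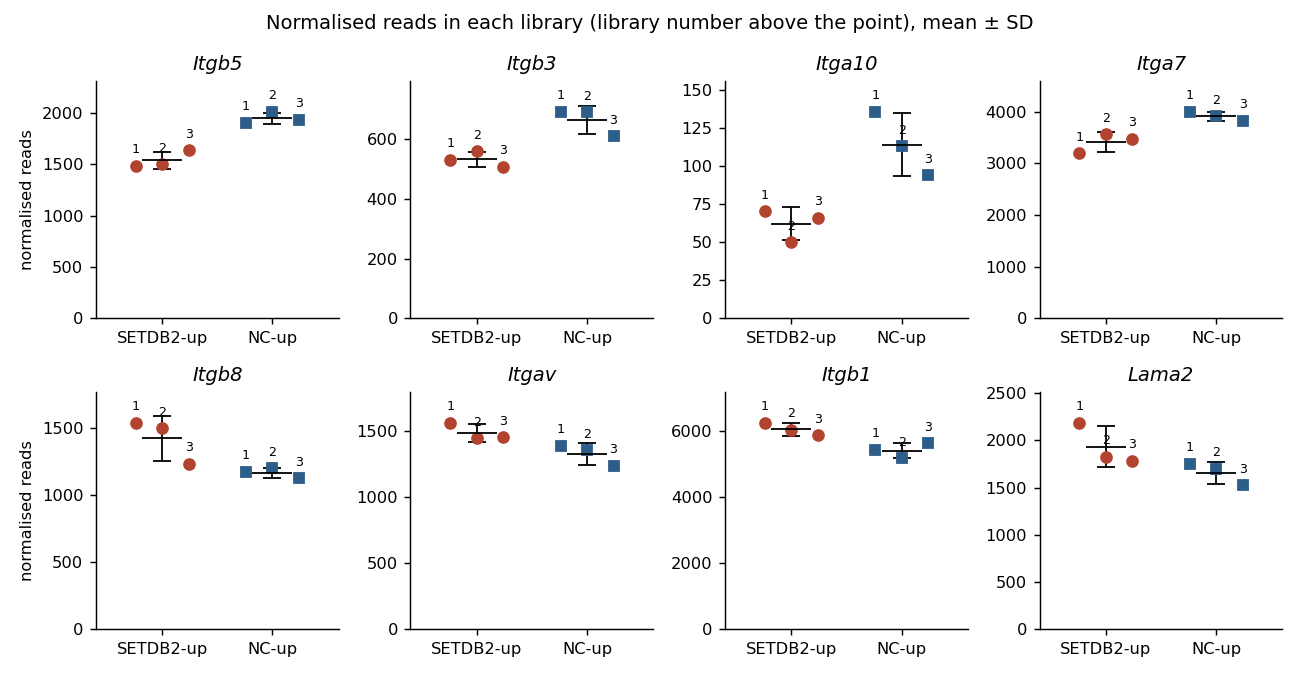
Normalised reads of the 5 called members and of Itgav, Itgb1 and Lama2 in each library (library number above the point), SETDB2-up left of NC-up, with mean ± SD (n = 3 each) and each axis starting at 0. Itgb5, Itgb3, Itga10 and Itga7 lie lower in every SETDB2-up library, and Itgb8 is raised mainly in SETDB2-up libraries 1 and 2.

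The leukocyte chains were low in both groups and none was called with all 6 libraries. Itgam, the α chain of macrophages and neutrophils, had 103, 105 and 81.2 normalised reads in SETDB2-up, and in NC-up libraries 112, 68.0 and 47.4, and the groups overlapped. Without NC-up library 1, its highest library, Itgam was called higher, at 0.74 (limma, adjusted p = 0.0332), against 0.42 with all libraries (limma, adjusted p = 0.279). Itgax, a dendritic cell and macrophage chain, had 19.0, 8.14 and 15.2 in SETDB2-up libraries and 12.7, 4.79 and 3.58 in NC-up libraries, with overlap. Its log2 fold change of 1.01 was the highest of all members, yet with an SE of 0.60 and an adjusted p of 0.266 (limma) a difference was not detectable at 66 reads in all. None of the 8 macrophage markers was called, and they summed to 2066 to 2497 normalised reads in SETDB2-up and 2205 to 3027 in NC-up libraries. The remaining integrin chains not named above, Itga4, Itga5, Itga8, Itga9, Itgae, Itgal and Itgb7, had adjusted p-values of 0.299 or more.

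Of the 10 laminin chains, 0 were called (limma, lowest adjusted p = 0.0608). An unadjusted p under 0.05 was reached by 2, Lama2 and Lamb2, and edgeR and DESeq2 also called 0. With 1 library left out, Lama2 passed without SETDB2-up library 3 (0.28, limma, adjusted p = 0.0143) and Lamb2 without NC-up library 3 (-0.30, limma, adjusted p = 0.0268). Neither passed with any other single library left out. After the adjustment for GC content Lama2 was at 0.15 and Lamb2 at -0.01 (limma, adjusted p = 0.268 and 0.959). The most abundant chains of each kind per kb were Lama4 and Lama2, Lamb1 and Lamc1. Lama2, on chromosome 10 (26981285 to 27617191), encodes the α chain of Schwann cell and muscle laminin. It had 2188, 1828 and 1786 normalised reads in SETDB2-up libraries, against 1748, 1695 and 1522 in NC-up libraries. The groups did not overlap, though SETDB2-up library 3 exceeded NC-up library 1 by a narrow margin, and the log2 fold change was 0.22 (standard error 0.08, adjusted p = 0.0608 by limma). Lama4, found in vessels and nerve, had 1541, 1460 and 1305 in SETDB2-up libraries and 1512, 1377 and 1316 in NC-up libraries, with full overlap. Among the laminin α chains, Lama2 made up 40.8%, 37.5% and 39.7% of the summed level per kb in SETDB2-up libraries and 35.3%, 36.6% and 36.4% in NC-up libraries. Lama4 made up 45.7%, 47.7% and 46.2% in SETDB2-up libraries and 48.5%, 47.2% and 49.99% in NC-up libraries.

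Among the β chains, Lamb1 had 3993, 3963 and 3805 normalised reads in SETDB2-up, and in NC-up libraries 4211, 3915 and 3760. The groups overlapped fully, and the 95% interval of the log2 fold change ran from -0.14 to 0.11. Lamb2, the β chain of synaptic laminins, had 1992, 1770 and 1925 in SETDB2-up libraries and 2155, 2507 and 1918 in NC-up libraries. The groups overlapped, NC-up library 2 was high, and the test was not passed (-0.20, standard error 0.08, adjusted p = 0.0935 by limma). Lamc1, the γ chain of most laminins, had 3246, 2980 and 2707 in SETDB2-up libraries and 3371, 3346 and 2987 in NC-up libraries (-0.12, standard error 0.07, adjusted p = 0.255 by limma). The summed level per kb of the α, β and γ laminin chains was 510 ± 44.9, 1014 ± 25.7 and 454 ± 36.9 in SETDB2-up libraries, against 478 ± 40.1, 1075 ± 72.9 and 498 ± 35.9 in NC-up libraries (SD, n = 3 each). All 3 sums overlapped between the groups. Lama1, Lama3, Lama5 and Lamc3 each held under 60 normalised reads per kb on average and had adjusted p-values of 0.231 or more.

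The fold changes of the members followed the GC content of their transcripts, as did those of all genes. Over the 15513 genes with a known transcript GC content, the Spearman correlation of log2 fold change with GC content was -0.557, and over the 35 members it was -0.495. These are descriptions across genes, which share the same 6 libraries. With all genes ranked by GC content and cut into 10 equal bins, the lowest bin had a median log2 fold change of 0.22 with 28.2% called higher, and the highest bin had -0.24 with 36.3% called lower. Itgb8, the member called higher, had the lowest GC content of all members at 40.4%, while Itgb3 had 52.1%, Itga10 53.8%, Itgb5 57.0% and Itga7 57.8%. After each library's values were adjusted for GC content, 0 members were called higher and 2 lower (limma), where 1.8% and 3.55% of all genes were, or 5.35% in either direction. The members still called were Itgb5, with a log2 fold change of -0.19 (adjusted p = 0.0477, limma), and Itga10, with -0.80 (adjusted p = 0.0321, limma). Itgb3 kept most of its size at -0.29 but missed the threshold (adjusted p = 0.0554, limma). By contrast Itgb8 dropped to 0.07 and Itga7 to -0.03 (adjusted p = 0.610 and 0.775, limma), and Itgb1 and Itgav to 0.04 and 0.01. Because the trend with GC content runs along the groups, it and the group difference cannot be told apart in this design.

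**Figure D5:**
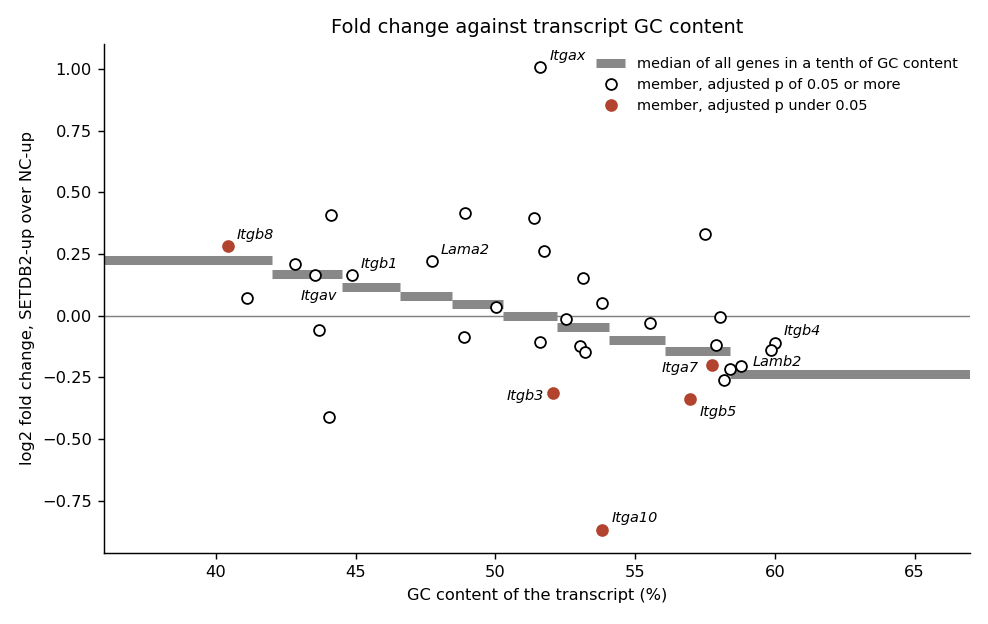
Log2 fold change of SETDB2-up over NC-up against GC content of the transcript (percent) for the members, 1 left out (points), and the median of all genes in each of 10 bins of GC content (bars, the outermost cut at the axis ends). Medians fall along the axis, 0.22 in the lowest bin and -0.24 in the highest, and Itgb8 and Itga7 lie near the bars while Itga10 lies far below them.

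Genes that work with these chains were described from 4 lists, in which 20 of 103 genes were called in all, or 19.4%, where 16.4% of all genes were. The number was 9 without SETDB2-up library 1, where 1093 of 16380 genes were called in all. It was 10 without NC-up library 2, where 1611 of 16387 genes were. Of 31 tested genes that activate integrins or link them to actin at adhesion sites, 0 were called higher and 6 (19.4%) lower, where 7.71% and 8.71% of all genes were. Pxn (paxillin), an adhesion-site scaffold, averaged 1802 ± 45.2 normalised reads in SETDB2-up and 2279 ± 73.9 in NC-up libraries (log2 fold change -0.34, limma, adjusted p = 0.00104). The adaptors Bcar1, Zyx (zyxin) and Lims2 had log2 fold changes of -0.25, -0.23 and -0.30, and Tgfb1i1 and Src were the others called lower. Pxn stayed past the threshold whichever library was left out, whereas Bcar1, Zyx and Lims2 lost it without SETDB2-up library 1, at -0.22, -0.19 and -0.34 (limma, adjusted p = 0.0973, 0.120 and 0.0583), and without 2 or 3 of the other libraries. The list's median log2 fold change was -0.07, beside 0.00 over all genes, and after the adjustment for GC content 0 of its genes were called in either direction by limma. Tgfb1i1 did not shrink under that adjustment, at -0.24 both before and after it, and then narrowly missed the threshold (limma, adjusted p = 0.0511).

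Of the 22 basement membrane partners of laminins, 0 were called higher and 2 (9.09%) lower, a share near the 8.71% of all genes. Their median log2 fold change was -0.20, and -0.07 after the adjustment for GC content. Hspg2 (perlecan), the main heparan sulphate proteoglycan of basement membranes, averaged 8813 ± 556 in SETDB2-up and 10833 ± 726 in NC-up libraries (log2 fold change -0.30, limma, adjusted p = 0.0032), and Egfl8 had -0.23. Egfl8 was past the threshold in the full data but not without SETDB2-up library 1 or 2 or NC-up library 2 or 3 (-0.24, -0.16, -0.22 and -0.21; limma, adjusted p = 0.104, 0.213, 0.113 and 0.111). The adjustment for GC content left neither of these calls, with Hspg2 at -0.05, and added Col18a1, a basement membrane collagen, at 0.31 (limma, adjusted p = 0.0333). Of 21 tested laminin receptors other than integrins and their linkers, 3 (14.3%) were called higher and 2 (9.52%) lower, where 7.71% and 8.71% of all genes were, with a median of 0.05. Dmd (dystrophin) and Dtna (α-dystrobrevin), which tie dystroglycan to the cytoskeleton, had log2 fold changes of 0.38 and 0.30. Bcam, a laminin α5 receptor, and Prx (periaxin), a dystroglycan linker of myelinating Schwann cells, had -0.23 and -0.18. Bcam was not called without SETDB2-up library 1 or NC-up library 2 (-0.19 and -0.22; limma, adjusted p = 0.0645 and 0.0616). After the adjustment for GC content Dtna alone was still called, at 0.20 (limma, adjusted p = 0.0418).

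Of the 30 tested integrin ligands other than laminins, 2 (6.67%) were called higher and 5 (16.7%) lower, beside the same 7.71% and 8.71% of all genes, with a median of -0.05. Spp1 (osteopontin), an RGD ligand of αv integrins, had 2356, 2298 and 2410 normalised reads in SETDB2-up libraries, against 1852, 1608 and 1732 in NC-up libraries. The groups were wide apart, and the log2 fold change was 0.45 (standard error 0.07, adjusted p = 0.000193 by limma), 0.29 after the adjustment for GC content (limma, adjusted p = 0.0109) and 0.48 without SETDB2-up libraries 1 and 2 (limma, adjusted p = 0.00399). Edil3, another αv ligand, had a log2 fold change of 0.25, which was near 0 after the adjustment. Emilin1, an elastic fibre protein, and Thbs1 (thrombospondin 1), which binds β1 and αv integrins, had -0.66 and -0.57, and after the adjustment Thbs1 was still called lower (-0.60, limma, adjusted p = 0.0321) while Emilin1 was not (-0.41, limma, adjusted p = 0.132). Thbs1 lost its call without SETDB2-up library 1 or NC-up library 1 (-0.59 and -0.40; limma, adjusted p = 0.0662 and 0.0789). Fn1, Vtn and Fbn1, which encode fibronectin, vitronectin and fibrillin 1, all RGD-bearing ligands, were also called lower, at -0.32, -0.39 and -0.25. After the GC adjustment none of these 3 was called (-0.26, -0.28 and -0.22; limma, adjusted p = 0.160, 0.251 and 0.123). The groups of Fn1 overlapped, SETDB2-up library 1 having 1543 normalised reads and NC-up library 3 having 1420.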

How the data were processed

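Polyadenylated RNA of 6 libraries was sequenced in strand-specific form, per the labels' protocols. The submitters' processing notes name FastQC, HISAT2 and the GRCm38 build; the counting tool, whether it used strand, the gene models and how low genes were dropped are not given in the sources. The deposited signal is read counts that the authors divided by 1 factor per library, as the values show: 100% are whole multiples of a library's own step (tolerance 0.001 read, 1 read being 0.892 to 1.06 normalised reads). Within a group, every 2 libraries differed by more than sampling noise, with chi-square over its degrees of freedom at 3.97 to 9.94.

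Limma 3.58.1 (R 4.3.3) with a mean-variance trend was fitted to log2(value + 1) of 16387 genes that reach 1 normalised read in 3 or more libraries (28 removed), with Benjamini-Hochberg adjustment over these genes; all 35 members passed. This scale understates fold changes of low genes. Alternatives were edgeR 4.0.16 and DESeq2 1.42.0 on recovered reads, other pseudocounts and filters, quantile normalisation, a replicate block, left-out libraries and removal of each library's loess trend (span 0.5) on transcript GC content. Lengths and GC content (94.7% of genes) came from GENCODE M21, levels per kb from the longest protein-coding transcript.

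Members and lists were chosen with earlier results of these data known. Values in every library are given for called members, the 6 highest per kb and chain partners of called members, and up to 4 called genes are named for each list; other genes were named after their values were seen. Some genes that this rule selects, and 1 member, are not reported here.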

Additional observations from a re-analysis of the deposited data

How the results depend on the processing

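The count of 4 lower and 1 higher members did not move under another pseudocount, no filter, a stricter filter or edgeR with either scaling. The count of higher members was 2 with DESeq2 and with quantile normalisation (Itgb1 added), 3 with the replicate block (Itgb1 and Lama2 added, where 3618 of 16387 genes were called) and 0 with the GC correction, with or without the replicate block, and 0 without SETDB2-up libraries 1 and 2, with or without the GC correction. Leaving out 1 library gave 0 to 3 higher and 2 to 4 lower members, where 1093 to 3333 of all genes were called. The count of lower members was 5 with the replicate block (Lamb2 added), 3 with the block and the GC correction (Itga10, Itgb3 and Itgb5), 2 with the GC correction alone, 0 without SETDB2-up libraries 1 and 2, where fewer libraries enter, and 1 when both were combined (Itga6, called under no other alternative). Genes of the 4 lists called numbered 20, against 4 with the GC correction, 31 with the replicate block, 13 with both, 6 without SETDB2-up libraries 1 and 2, 4 with these left out and the GC correction, and 9 to 25 with 1 library left out.

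Of 18 alternatives, Itgb5 was called in 16, Itga10 in 15, Itgb3 in 12, Itgb8 in 11 and Itga7 in 10, while Spp1 was called in 18 and Setdb2 in 10. With the GC correction, also with the replicate block, the log2 fold change turned sign for 7 members, none called, and 28 genes of the lists, 2 of them called before it. Among the genes followed through every alternative these were Bcam (0.0124), Edil3 (-0.000561), Itga3 (0.0494), Itgb4 (0.115) and Lamb1 (0.0244); the other members were Itga4 (-0.127), Lama5 (0.0822), Itga11 (0.0799) and Itgb7 (0.167). With the GC correction and without SETDB2-up libraries 1 and 2 signs turned for Bcam (0.0399), Itga3 (0.0569), Itgb4 (0.128), Itgb8 (-0.0490) and Lama4 (-0.123); Lama4 was -0.0999 without these libraries alone. Lama4, Itga6 and Lamb1, none called, also crossed 0 when 1 library was left out (-0.0195 to 0.09996, -0.134 to 0.00321 and -0.0510 to 0.0308). The cause of these changes was not tested.

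Libraries of the same number were not shown to be pairs: their deviations correlated at 0.0383, 0.0359 and 0.0484, though each library correlated best with its own number (a hint from the data only). Setdb2 and the members under 100 normalised reads are limited by depth, 3 reads being 2.68 to 3.18 normalised reads.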
